A study of Homo sapiens with 12 samples.

Results

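The loci described here are those of 10 genes that blood stem cells use: GATA2, ERG, TAL1, LYL1, LMO2, FLI1, GFI1, GFI1B, MECOM and CD34. A locus was the RefSeq gene body with 20 kb on each side in the hg38 (GRCh38) genome, and its members were all chromatin accessibility peaks of 12 ATAC-Seq libraries that overlapped it. Merged over the libraries, these peaks made 256 regions in the 10 loci, out of 334907 regions on the autosomes and chromosome X. ATAC-Seq cuts open chromatin with the transposase Tn5, and a peak is a stretch where the cuts pile up above the local background.

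The libraries came from established acute myeloid leukemia (AML) cell lines. OCI-AML3 cells carry mutant NPM1 (mtNPM1), and MV4-11 and MOLM13 cells carry a rearranged MLL1 gene (MLL1-r). Each line was exposed to 500 nM of the Menin inhibitor VTP50469 (SNDX-50469) for 16 h or left as control, and each of the 6 groups had 2 libraries. Menin is the cofactor that holds MLL1 and its fusion proteins on chromatin, so the design compares, within each line, cells in which that contact was blocked with cells in which it was not. The cells were cryopreserved before nuclei were isolated. Each line is 1 culture model of its genotype, and the labels do not say whether the 2 libraries of a group came from separate cultures, so the p-values below measure the spread between these libraries.

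The transcription factors among the 10 genes work together at shared enhancers in blood stem and progenitor cells. GATA2 is a zinc finger factor that binds GATA motifs, TAL1 and its close relative LYL1 are basic helix-loop-helix factors that bind E-boxes, and LMO2 is the adaptor that bridges them. ERG and FLI1 are ETS factors that bind GGAA motifs next to them. GFI1 and GFI1B are repressors that recruit the demethylase LSD1, MECOM encodes the stem cell factor EVI1 from internal start sites and a longer protein from its first start, and CD34 is the surface sialomucin by which stem and progenitor cells are sorted.

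The libraries held 68670 to 145364 peaks, with 68670 to 94529 in OCI-AML3, 115689 to 145364 in MV4-11 and 79373 to 103034 in MOLM13, and a median summit rested on 9 to 13 reads. Sequencing totals were not used here, and a region without a peak was not called at its library's depth, which does not make it closed. In bulk cells, fewer cells with an open site and less opening per cell cannot be told apart. The start sites of SPI1, CEBPA, LYZ and PTPRC, 4 of 8 myeloid markers, had a peak in all 12 libraries, while those of MPO and CD33 had none in the 4 OCI-AML3 libraries. No library had one at any of 4 mast cell markers, and 5 of 6 erythroid markers had none either. Of 6 T cell markers 2 had a peak in all 12 libraries and 2 in none, of 6 B cell markers 1 had one in all 12 and 2 in none, of 6 endothelial markers 0 had one in all 12 and 2 in none, and of 6 megakaryocyte and platelet markers 0 had one in all 12 and 3 in none. The other markers of these lists lay between, such as ESAM (9 libraries), CD4 (10), PAX5 (8) and ITGA2B (7, with none in OCI-AML3), and the part of other cell types in the results below was not tested.

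Sequences of the start sites are shown because the loci differed in whether a peak lay over the annotated start. RefSeq promoter windows of 300 bases (250 before and 50 after a start, GRCh38.p14) were matched for 8 of the 10 genes, which gave 18 windows. TAL1 has 2 of them, 620 bases apart: the downstream one lay under a peak in 12 of 12 libraries with the summit inside it each time, and the first in none. GFI1 has 2 neighbouring windows that lay under a peak in 12 of 12 libraries. The window of ERG, for a start 1.12 kb from the 5′ end of the gene record, lay under a peak in 5 libraries and that of the second start of GATA2 in 1. The ERG and GATA2 windows and the first TAL1 window were chosen after their values were seen. Each run gives the bases before the start, 5′ to 3′ on the minus strand of GRCh38.p14, and capitals mark the letters TGTGGT (RUNX), GATAA (GATA) or GGAA (ETS) on either strand.
TAL1 second start, chr1:47231716-47231965: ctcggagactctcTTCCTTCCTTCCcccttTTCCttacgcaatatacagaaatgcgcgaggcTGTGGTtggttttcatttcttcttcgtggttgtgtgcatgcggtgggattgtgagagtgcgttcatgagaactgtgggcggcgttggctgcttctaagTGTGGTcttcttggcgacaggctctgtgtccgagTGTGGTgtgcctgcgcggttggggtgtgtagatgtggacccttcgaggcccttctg
TAL1 first start, chr1:47232336-47232585: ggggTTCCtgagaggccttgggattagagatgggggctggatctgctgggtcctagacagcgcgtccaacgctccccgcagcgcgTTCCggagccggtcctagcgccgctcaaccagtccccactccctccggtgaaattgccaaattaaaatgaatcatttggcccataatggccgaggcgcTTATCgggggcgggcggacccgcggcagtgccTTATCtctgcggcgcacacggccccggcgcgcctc
GFI1 first start, chr1:92486926-92487175: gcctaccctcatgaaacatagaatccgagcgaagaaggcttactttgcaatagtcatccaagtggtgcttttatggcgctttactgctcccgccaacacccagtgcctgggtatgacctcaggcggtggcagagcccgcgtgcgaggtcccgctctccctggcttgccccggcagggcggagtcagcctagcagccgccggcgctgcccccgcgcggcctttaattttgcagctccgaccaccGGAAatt
GFI1 second start, chr1:92486101-92486349: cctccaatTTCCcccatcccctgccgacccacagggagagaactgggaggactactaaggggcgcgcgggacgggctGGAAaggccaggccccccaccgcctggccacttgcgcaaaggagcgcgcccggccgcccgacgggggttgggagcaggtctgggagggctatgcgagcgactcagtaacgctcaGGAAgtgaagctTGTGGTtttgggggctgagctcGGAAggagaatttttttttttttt
ERG start, chr21:38660668-38660917: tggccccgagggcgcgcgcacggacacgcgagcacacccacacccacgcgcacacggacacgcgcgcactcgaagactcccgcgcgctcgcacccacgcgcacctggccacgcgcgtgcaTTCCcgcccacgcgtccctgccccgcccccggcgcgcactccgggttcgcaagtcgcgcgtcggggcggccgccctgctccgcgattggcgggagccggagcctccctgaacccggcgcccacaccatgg
GATA2 second start, chr3:128488531-128488780: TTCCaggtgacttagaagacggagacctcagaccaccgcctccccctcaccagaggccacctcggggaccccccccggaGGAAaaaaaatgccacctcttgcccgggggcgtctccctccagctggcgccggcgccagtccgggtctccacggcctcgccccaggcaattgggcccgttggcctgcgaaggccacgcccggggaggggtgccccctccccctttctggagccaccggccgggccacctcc

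The TAL1 window under a peak held 3 RUNX matches and 4 ETS matches and no GATA match, and the first window, under no peak, held 2 GATA matches and no RUNX match. Of all 34961 windows of the same length, 13.1% held TGTGGT on either strand, 22.7% held GATAA, 95.5% held GGAA and 68.7% held an E-box (CANNTG). Among the 18 member windows these shares were 16.7% for TGTGGT, 38.9% (7 windows) for GATAA, 100% for GGAA and 72.2% for CANNTG. The ERG windows at 163.3 kb overlapped almost wholly, so their GATAA match counted in both. No member window held an E-box with GATA 8 or 9 bases after it, the spacing bound by TAL1 with GATA factors, and 0.824% of all windows did. A match is a description of the letters and not a bound site.

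The start sites ranged from those with a peak within 1 kb in every library to those with none in any. TAL1, LYL1, LMO2, GFI1 and GFI1B had a peak within 1 kb of the first start in 12 of 12 libraries. The first start of ERG had one in 11 libraries. CD34 had one in 1 library, GATA2 in 1, MECOM in 2 and FLI1 in 3. Some later starts differed from the first ones. The second start of GATA2, 4.67 kb into the gene, had a peak in 11 libraries. The internal MECOM starts at 516 and 517 kb, which give EVI1, had one in 7. The third start of GFI1, at 3.11 kb, had a peak in 8 libraries and the second start of GFI1B, at 33.2 kb, in 6. The ERG starts at 76.8 and 163.3 kb had one in 0. For LMO2 and FLI1, which had no matched promoter window, the 5′ end of the gene record was the only start read. Whether later starts of these genes had peaks was not tested.

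**Figure D1:**
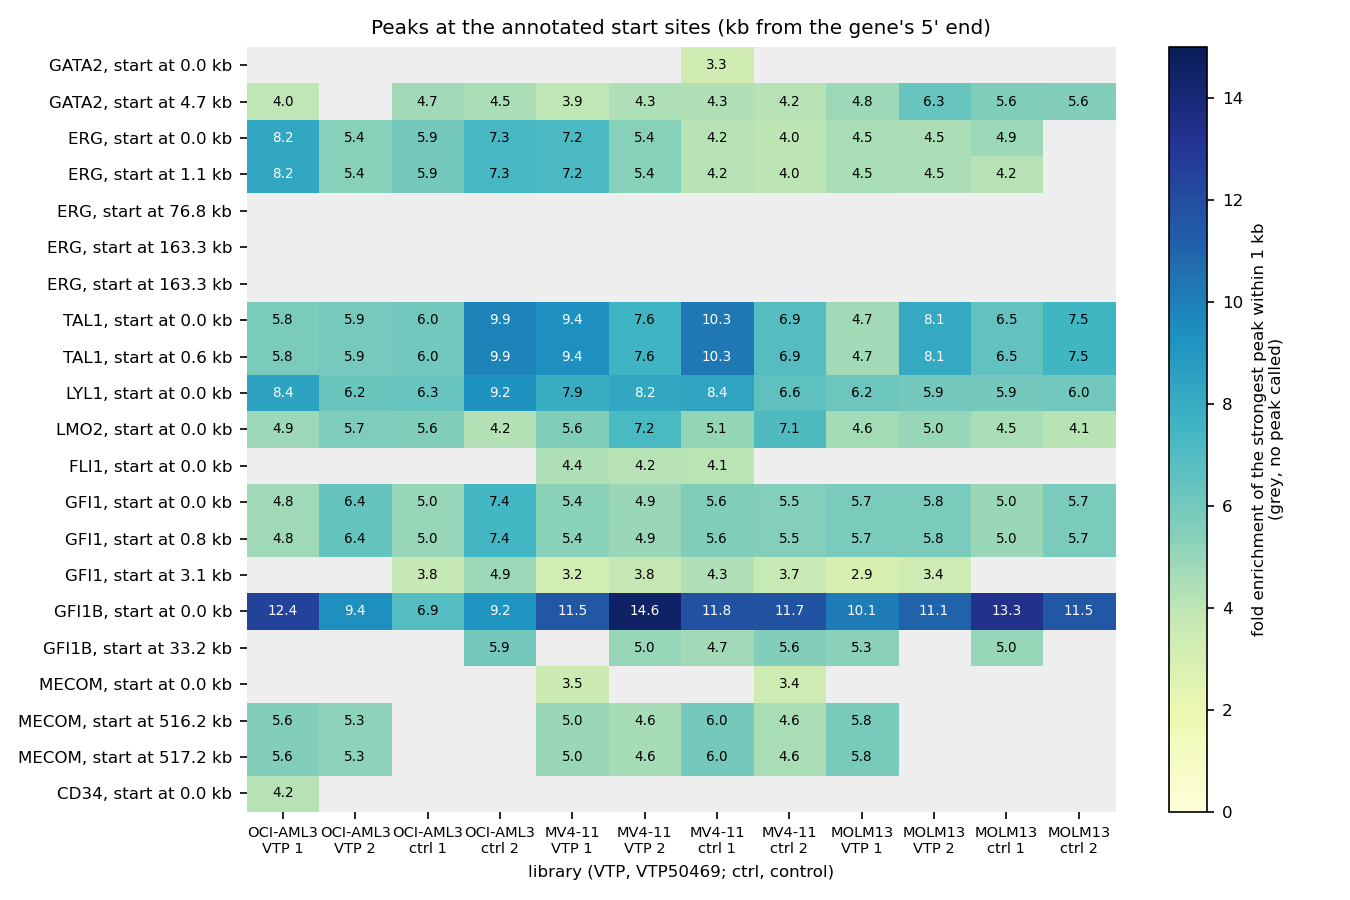
Fold enrichment of the strongest peak within 1 kb of each annotated start site of the 10 genes (rows, with the distance in kb from the gene's 5′ end) in each of the 12 libraries (columns), with grey where no peak was called. The first start of GFI1B had the highest values, up to 14.6, from peaks just upstream of it in a locus that TSC1 also overlaps. The first start of CD34 had a peak in 1 library only, and the ERG starts at 76.8 and 163.3 kb in none.

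Among the 256 regions, 23 were called in all 12 libraries, or 8.98%, beside 6.97% of all regions, and 132 were called in 1 library only. FLI1 held 7 of the 23, LYL1, LMO2 and GFI1 held 3 each, MECOM and CD34 held 2 each, ERG, TAL1 and GFI1B held 1 each, and GATA2 held 0. The MECOM locus was the longest at 620 kb and had 74 regions, 49 of them in 1 library only. The share of all regions called in 1 library only was not computed, so neither count is read as a trait of these loci.

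GATA2 had no region common to all libraries. Its strongest region outside the start sites, by the median −log10 q over the libraries, the rule used for every gene, lay 4.58 kb upstream of the first start (chr3:128497487-128498084) and had fold enrichments over the local background of 5.89 and 4.69 in VTP50469-treated and 5.74 in control replicate 1 of OCI-AML3, with no peak in control replicate 2. In MV4-11 the fold was 8.33 and 9.23 with VTP50469, against 7.64 and 8.32 in control. In MOLM13 it was 4.51 and 6.89 with VTP50469, against 5.54 and 4.75 in control. Thus every MV4-11 library lay above every library of the other lines, and the treatments overlapped in OCI-AML3 and MOLM13 while both VTP50469 values of MV4-11 lay just above both controls. At the start sites, the strongest GATA2 region (chr3:128488980-128489686, 3.87 kb into the gene) was called in 1 OCI-AML3, 3 MV4-11 and 4 MOLM13 libraries.

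At ERG, the one region shared by all libraries lay 21.9 kb inside the gene (chr21:38639681-38640091), with folds of 7.73 and 5.51 with VTP50469, against 9.18 and 8.58 in control, in OCI-AML3. The values were 6.60 and 9.77 with VTP50469, against 9.61 and 7.73 in control, in MV4-11, and 6.49 and 7.26 with VTP50469, against 11.2 and 6.74 in control, in MOLM13. The lines overlapped, and so did the treatments in MV4-11 and MOLM13, while in OCI-AML3 both VTP50469 libraries lay below both controls. The ERG start region (chr21:38660497-38661597) had folds of 8.22 and 5.40 with VTP50469, against 5.94 and 7.28 in control, in OCI-AML3. It had 7.20 and 5.40 with VTP50469, against 4.21 and 4.01 in control, in MV4-11, and 4.54 and 4.46 with VTP50469, against 4.18 and no peak in control, in MOLM13. The OCI-AML3 libraries were the highest apart from MV4-11 with VTP50469, which overlapped them.

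TAL1 had 1 shared region, at its start (chr1:47231508-47232192), which covers the second window printed above. Its folds were 5.78 and 5.91 with VTP50469, against 5.99 and 9.90 in control, in OCI-AML3. They were 9.39 and 7.59 with VTP50469, against 10.3 and 6.87 in control, in MV4-11, and 4.71 and 8.13 with VTP50469, against 6.46 and 7.48 in control, in MOLM13. The lines overlapped, as did the treatments in MV4-11 and MOLM13, and both OCI-AML3 VTP50469 values lay below both controls. The strongest other TAL1 region lay 20.3 kb downstream of the start, beyond the gene's 3′ end (chr1:47211592-47212467), and was called in 3 OCI-AML3, 4 MV4-11 and 3 MOLM13 libraries. Mouse Tal1 has a known stem cell enhancer downstream of the gene.

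The partners of TAL1 had open starts, and their loci held strong regions away from the starts that were read. The strongest regions of the LYL1 locus lay 13.8 and 15.4 kb upstream of LYL1 (chr19:13116274-13117042 and chr19:13117948-13118489). NFIX, TRMT1 and NACC1 also overlap this locus. Their start sites were not read, and which of these genes the regions belong to was not tested. At the first of these the folds were 4.95 and 5.58 with VTP50469, against 5.27 and 6.72 in control, in OCI-AML3. They were 8.68 and 10.9 with VTP50469, against 9.18 and 9.73 in control, in MV4-11, and 7.08 and 9.46 with VTP50469, against 10.2 and 10.9 in control, in MOLM13. Every OCI-AML3 library lay below every library of the other lines. LMO2 had its strongest region 21.9 kb inside the gene (chr11:33869455-33870800), with folds between 7.37 and 12.7 over the 12 libraries and lines that overlapped. No later LMO2 start was read, so whether this region lies at one was not tested.

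FLI1 had 7 regions in all 12 libraries, more than any of the other 9 genes, with its strongest 10.9 kb inside the gene (chr11:128695728-128696320, folds of 6.59 to 13.4). No later FLI1 start was read, so whether this region lies at one was not tested. GFI1 had its strongest region 26.8 kb downstream of the start, beyond the gene (chr1:92459754-92460553, folds of 6.27 to 11.5). GFI1B had its strongest region just upstream of its first start (chr9:132944255-132945313, folds of 6.87 to 14.6), in a locus that TSC1 also overlaps. This region ended before the start, and which of these genes it belongs to was not tested. CD34 had almost no peak at its start, and its strongest region lay 42.0 kb downstream of it, past the 3′ end (chr1:207868721-207869466), with folds of 6.15 to 10.6 in the 12 libraries.

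The lines were compared first by which regions were called in all 4 libraries of 1 line and in none of the other 8. One region met this for OCI-AML3, beside 0.245% of all regions: it lay 6.09 kb upstream of LMO2 (chr11:33898043-33898293), with folds of 4.38 and 5.64 with VTP50469, against 7.37 and 7.34 in control. In MV4-11, 3 regions met it, beside 2.01% of all regions. They lay 185 kb inside ERG (chr21:38476352-38476756, folds of 5.37 to 9.53), 1.71 kb upstream of LYL1 (chr19:13104371-13104759, 3.86 to 4.43) and 450 kb inside MECOM (chr3:169214082-169214271, 4.91 to 7.21). In MOLM13, 0 regions met it, beside 0.124% of all regions. The MV4-11 libraries had the most peaks, and the part of that in these 3 regions was not tested, but none of the 3 was left when the 60000 strongest peaks of each library were used. The OCI-AML3 count was 1 in that setting as well and 0 at a −log10 q of at least 5.

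Among regions called in all 8 libraries of the MLL1-r lines and in none of OCI-AML3, a class added after the values were seen, 3 lay in the 10 loci, beside 0.969% of all regions. One was in MECOM, 436 kb inside the gene (chr3:169227888-169228421). Its folds were 10.3 and 11.8 with VTP50469, against 12.6 and 12.2 in control, in MV4-11, and 7.01 and 6.60 with VTP50469, against 4.18 and 5.39 in control, in MOLM13. The other 2 lay downstream of CD34, at 37.8 kb (chr1:207872966-207873720, 5.13 to 5.89 over the 8 libraries) and 47.0 kb from its start (chr1:207863927-207864367, 5.08 to 8.81), on either side of the CD34 region that all 12 libraries shared. In the MECOM region every MV4-11 value lay above every MOLM13 value.

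Further MECOM regions had their highest folds in MV4-11. The strongest of them, 336 kb inside the gene (chr3:169327720-169328370), had folds of 4.99 and no peak with VTP50469, against 5.47 and 3.90 in control, in OCI-AML3. It had 15.2 and 16.7 with VTP50469, against 15.3 and 17.6 in control, in MV4-11, and 9.68 and 9.64 with VTP50469, against 8.32 and 9.25 in control, in MOLM13. The folds of the 3 lines did not overlap, with MV4-11 highest and OCI-AML3 lowest, but in the test of strength the difference of MV4-11 minus MOLM13 did not pass (1.18, SE 0.34, adjusted p = 0.060, limma). A region 13.4 kb upstream (chr3:169676804-169677498) had no peak with VTP50469, against 4.67 and 4.62 in control, in OCI-AML3. It had 13.3 and 12.9 with VTP50469, against 11.1 and 14.5 in control, in MV4-11, and 7.27 and 5.59 with VTP50469, against 9.03 and 7.59 in control, in MOLM13, again with no overlap between the lines. The MECOM region at 514 kb (chr3:169149262-169149733), close to the EVI1 starts, and chosen after its values were seen, ran otherwise: it was called in all 12 libraries, with folds of 3.75 to 8.58 in OCI-AML3, 6.26 to 8.42 in MV4-11 and 7.05 to 13.3 in MOLM13, and the lines overlapped.

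**Figure D2:**
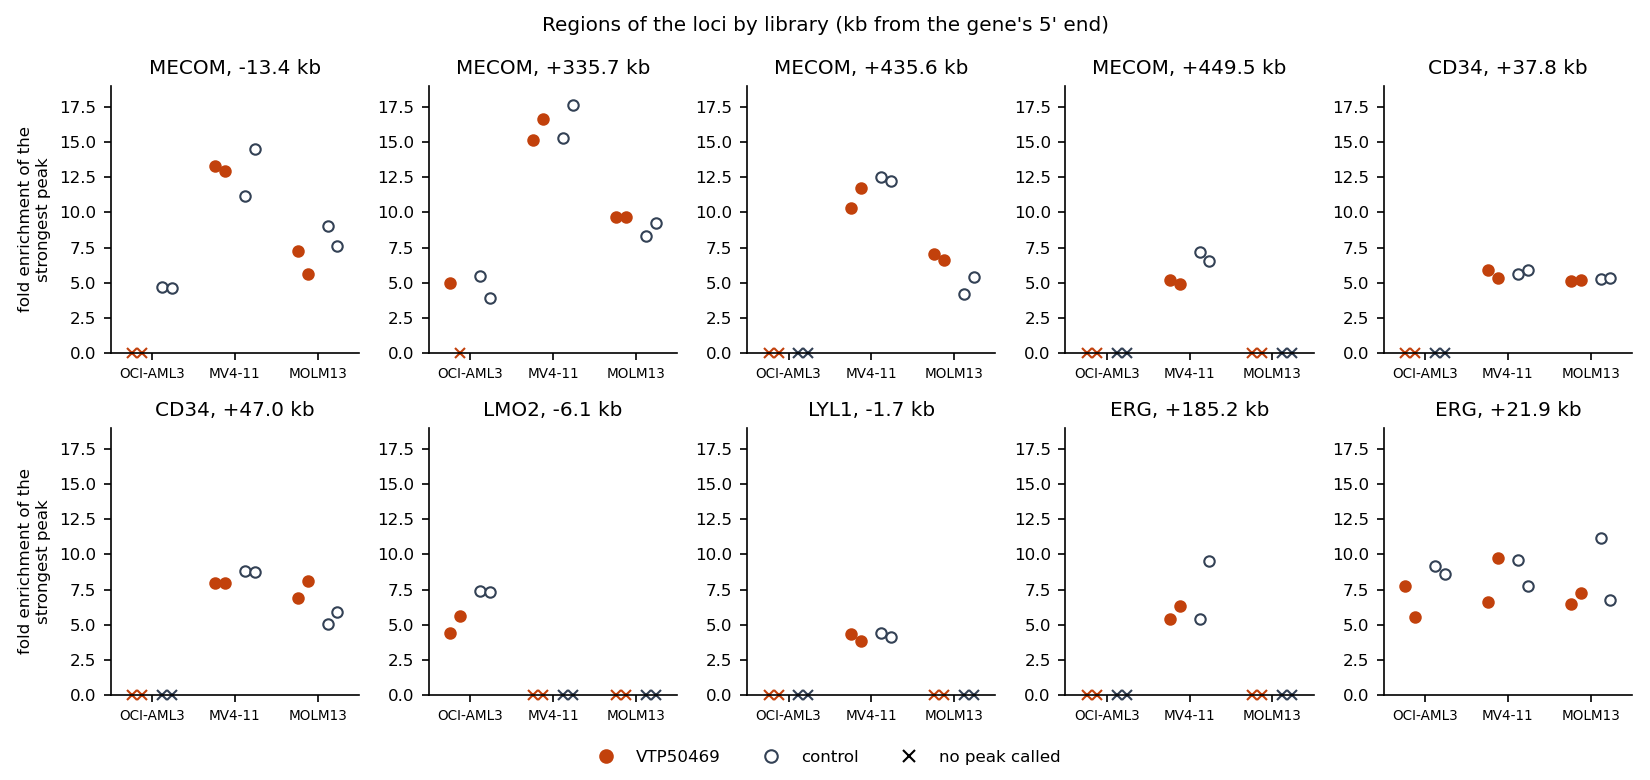
Fold enrichment of the strongest peak (vertical axis) in 10 regions of the loci, by line, with 1 point per library (filled, VTP50469; open, control) and crosses at 0 where no peak was called. The MECOM regions at −13.4, +335.7 and +435.6 kb ran from MV4-11 at the top to OCI-AML3 at the bottom, while the ERG region at +21.9 kb overlapped in the 3 lines.

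The strength of regions called in every library was tested with limma on the normal score of the fold's rank within its library, with Benjamini-Hochberg adjustment over all 23338 regions called in all 12, of which 23 lay in the 10 loci. For OCI-AML3 minus MV4-11, 1 of the 23 passed, beside 13.6% of all regions. It was a GFI1 start region, chr1:92486550-92487159 (difference of 1.22, SE 0.35, adjusted p = 0.033). Its folds were 4.76 and 6.38 with VTP50469, against 4.84 and 7.41 in control, in OCI-AML3, and 5.37 and 3.38 with VTP50469, against 5.01 and 4.61 in control, in MV4-11, which overlapped as raw folds. That call was lost without any 1 of 5 libraries (OCI-AML3 VTP50469 replicate 2, 1.04; OCI-AML3 control replicate 2, 1.01; MV4-11 VTP50469 replicate 2, 0.87; MV4-11 control replicate 1, 1.29; MV4-11 control replicate 2, 1.14), with adjusted p between 0.065 and 0.155.

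For OCI-AML3 minus MOLM13, 2 of the 23 passed, beside 8.79% of all regions. The LYL1 region at 13.8 kb upstream was lower in OCI-AML3 (difference of -1.18, SE 0.27, adjusted p = 0.015), as the values above show. Which gene of this locus it belongs to was not tested. A region 49.2 kb inside FLI1 (chr11:128733816-128734773) was higher in OCI-AML3 (1.33, SE 0.31, adjusted p = 0.016). Its folds were 8.46 and 7.55 with VTP50469, against 10.7 and 9.02 in control, in OCI-AML3, and 5.70 and 5.55 with VTP50469, against 4.86 and 7.38 in control, in MOLM13, with no overlap between these lines. Leaving out OCI-AML3 VTP50469 replicate 1, OCI-AML3 control replicate 1 or MOLM13 VTP50469 replicate 2 ended the LYL1 call (-1.04, -1.05 and -1.08, adjusted p between 0.056 and 0.059), and leaving out OCI-AML3 control replicate 1, MOLM13 VTP50469 replicate 2 or MOLM13 control replicate 1 ended the FLI1 call (1.13, 1.23 and 1.04, adjusted p between 0.062 and 0.076). For MV4-11 minus MOLM13, 0 of the 23 passed, beside 4.42% of all regions, and 4 had an unadjusted p under 0.05, beside 20.3% of all regions. At a −log10 q of at least 5 none of the 3 calls was left: the GFI1 start gave 0.90 (adjusted p = 0.14), the LYL1 and FLI1 regions could not be fitted, and another FLI1 region, 72.3 kb inside the gene, passed for OCI-AML3 minus MOLM13 (-1.15, adjusted p = 0.038). The GFI1 start call was also lost with −log10 p (0.82, adjusted p = 0.093) or recovered reads (0.34, adjusted p = 0.19) as the measure. Another GFI1 region at the starts, 1.12 kb into the gene, ran the other way without passing. OCI-AML3 minus MV4-11 gave -0.32 there (adjusted p = 0.57) and OCI-AML3 minus MOLM13 gave -0.91 (adjusted p = 0.12). Against MOLM13 that region passed with −log10 p (-1.23, adjusted p = 0.018) or recovered reads (-0.77, adjusted p = 0.0091). With the control libraries alone, 0 of the 23 passed in any line contrast.

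With regions missing in 1 library admitted, 30 regions of the 10 loci could be tested among 29992. For OCI-AML3 minus MV4-11, 4 of the 30 passed, beside 13.6% of all regions. The MECOM region at 336 kb was lower in OCI-AML3 (difference of -2.79, SE 0.38, adjusted p = 0.00095), as was a region 15.5 kb upstream of GFI1 (chr1:92502134-92502670; -1.39, SE 0.33, adjusted p = 0.016). The ERG start region was higher (1.35, SE 0.32, adjusted p = 0.015), and the same GFI1 start region passed again. For OCI-AML3 minus MOLM13, 4 of the 30 passed, beside 9.02% of all regions: the MECOM region at 336 kb was lower (-1.60, SE 0.38, adjusted p = 0.018) and the ERG start region higher (1.37, SE 0.36, adjusted p = 0.029), next to the LYL1 and FLI1 regions given above. For MV4-11 minus MOLM13, 1 of the 30 passed, the GFI1 region at 15.5 kb upstream (1.19, SE 0.30, adjusted p = 0.036), beside 5.07% of all regions. The missing library was left out of the fit of its region: OCI-AML3 VTP50469 replicate 2 for the MECOM region and the GFI1 region at 15.5 kb, and MOLM13 control replicate 2 for the ERG start.

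The number of peaks in a locus, per 10000 peaks of its library, was compared over all 17889 protein-coding genes with 12 or more peaks in sum. LMO2 had 9 and 8 peaks with VTP50469, against 10 and 11 in control, in OCI-AML3. It had 9 in each of the 4 MV4-11 libraries, and 6 and 6 with VTP50469, against 8 and 8 in control, in MOLM13. Per 10000 peaks this came to 1.23 ± 0.13 in OCI-AML3, 0.699 ± 0.067 in MV4-11 and 0.772 ± 0.20 in MOLM13 (SD, n = 4 libraries each), and on this measure the OCI-AML3 libraries lay above all others. The share of the LMO2 locus under peaks, not divided by the library's peaks, was 2.25 to 3.48% in OCI-AML3, 3.86 to 5.47% in MV4-11 and 2.19 to 3.05% in MOLM13. Per 10000 peaks GFI1B ran the other way from LMO2, at 0.32 ± 0.12 in OCI-AML3, 0.631 ± 0.078 in MV4-11 and 0.559 ± 0.15 in MOLM13, from 1 to 3 peaks per OCI-AML3 library and 6 to 10 per MV4-11 library. ERG stood at 0.929 ± 0.085 in OCI-AML3, 1.19 ± 0.16 in MV4-11 and 0.707 ± 0.14 in MOLM13.

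For OCI-AML3 minus MV4-11, 2 of the 10 loci passed, LMO2 (log2 difference of 0.81, SE 0.17, adjusted p = 0.0029, limma) and GFI1B (-0.86, SE 0.25, adjusted p = 0.022), beside 21.1% of all genes. For OCI-AML3 minus MOLM13, LMO2 alone of the 10 passed (0.68, SE 0.17, adjusted p = 0.012), beside 12.4% of all genes. For MV4-11 minus MOLM13, ERG alone passed (0.70, SE 0.17, adjusted p = 0.022), beside 5.19% of all genes. The medians of the 10 loci were -0.03, 0.12 and -0.01 in these contrasts, and those of all genes 0.12, 0.05 and -0.09. None of the 4 calls was kept with the 60000 strongest peaks of each library, where 0 of the 10 loci passed, or at a −log10 q of at least 5, and GFI1B turned to 0.058 there and to 0.62 at the −log10 q limit (adjusted p = 0.92 and 0.062). At the −log10 q limit, where the share of all genes called was not computed, 6 other calls passed. They were CD34 (0.55, adjusted p = 0.020), MECOM (-1.08, adjusted p = 0.0012) and FLI1 (0.39, adjusted p = 0.040) for OCI-AML3 minus MV4-11, TAL1 (1.095, adjusted p = 0.040) and MECOM (-1.08, adjusted p = 0.0031) for OCI-AML3 minus MOLM13, and CD34 (-0.61, adjusted p = 0.027) for MV4-11 minus MOLM13. With flanks of 5 and 50 kb, GFI1B (-0.48 and -0.35) and LMO2 against MOLM13 (0.59 and 0.41) did not pass, while ERG passed for OCI-AML3 minus MOLM13 (0.62, adjusted p = 0.046, and 0.58, adjusted p = 0.019). With an offset of 2 peaks the GFI1B call was lost as well (-0.46, adjusted p = 0.060). With the control libraries alone, the LMO2 call against MV4-11 was the 1 that held. Both LMO2 calls held without each of the 12 libraries in turn. The GFI1B call was lost without OCI-AML3 VTP50469 replicate 2 (-0.60), OCI-AML3 control replicate 2 (-0.75), MV4-11 VTP50469 replicate 2 (-0.77), MV4-11 control replicate 1 (-0.88) or MV4-11 control replicate 2 (-0.84), and the ERG call without MV4-11 VTP50469 replicate 1 (0.73), MV4-11 VTP50469 replicate 2 (0.68), MV4-11 control replicate 2 (0.60), MOLM13 VTP50469 replicate 1 (0.62) or MOLM13 control replicate 1 (0.66).

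**Figure D3:**
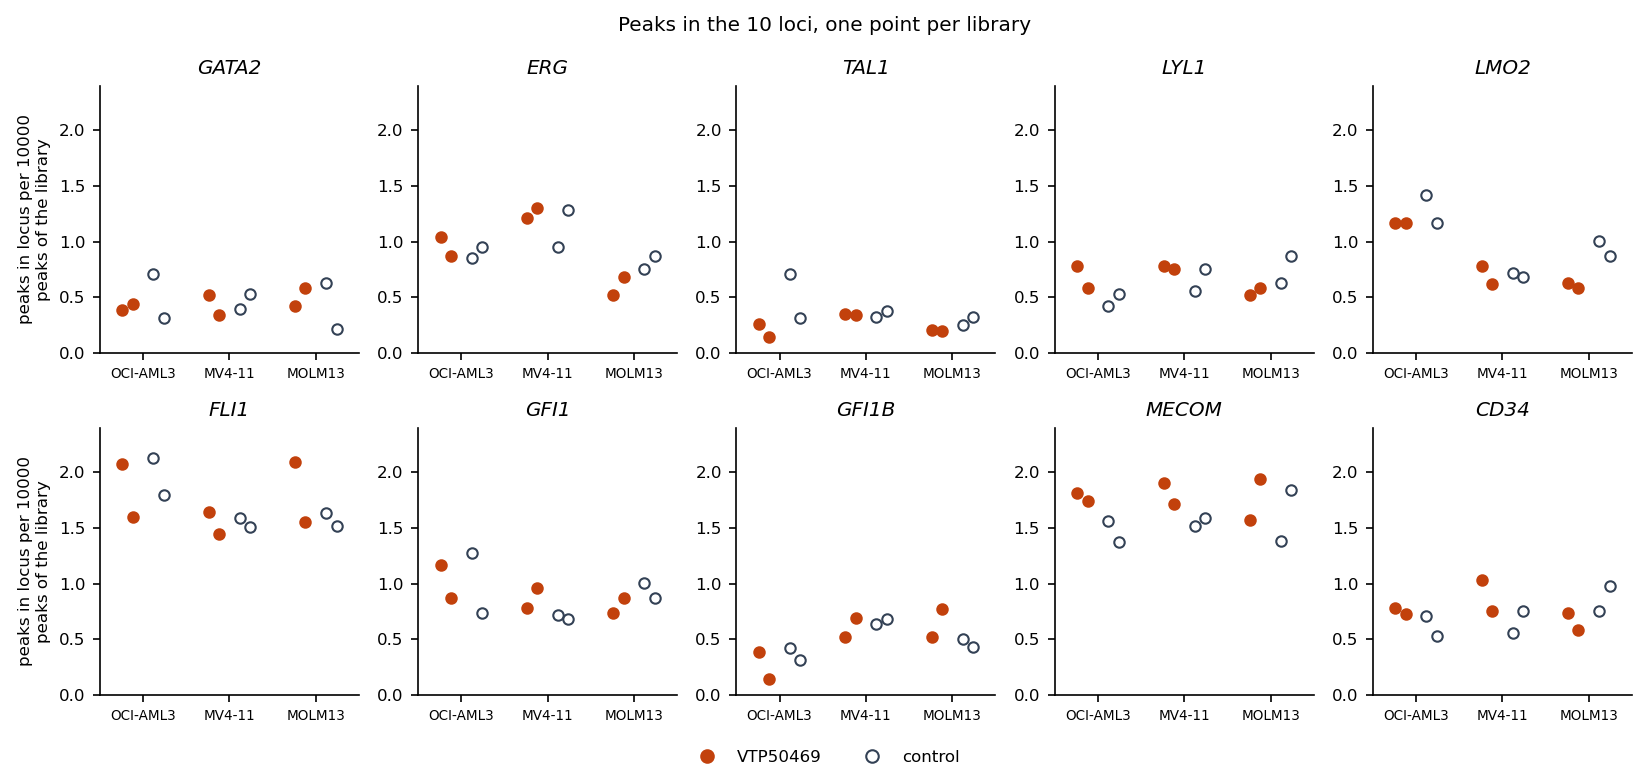
Peaks in each of the 10 loci per 10000 peaks of the library (vertical axis), by line, with 1 point per library (filled, VTP50469; open, control). LMO2 had 1.16 to 1.42 in OCI-AML3, above all 8 libraries of the other lines, and GATA2 overlapped in the 3 lines.

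GATA2 had 0.46 ± 0.17 peaks per 10000 in OCI-AML3, 0.448 ± 0.091 in MV4-11 and 0.46 ± 0.19 in MOLM13, which overlapped, with log2 differences between lines of -0.02 to 0.09. TAL1 had 0.36 ± 0.25 in OCI-AML3, 0.347 ± 0.024 in MV4-11 and 0.245 ± 0.059 in MOLM13, and did not pass in any line contrast with all peaks (adjusted p = 0.46 to 0.96), against 1 contrast at the −log10 q limit. With all peaks, MECOM had overlapping numbers in the 3 lines, at 1.63 ± 0.20 in OCI-AML3, 1.68 ± 0.17 in MV4-11 and 1.69 ± 0.25 in MOLM13, whereas at the −log10 q limit MECOM was lower in OCI-AML3 than in both other lines, as given above.

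The genes whose peak number ran most like that of GATA2 over the 12 libraries were CHTF8 and DERPC (Pearson r of 0.895 each) and EFHB (0.873). For ERG they were LTBP1 (0.896), SPATA18 (0.885) and ANTXR1 (0.873), and for TAL1 they were CUEDC1 (0.877), SEMA3G (0.839) and KIAA0040 (0.839). These are the highest of 9284 genes for GATA2 and of 9283 for ERG and TAL1, from 12 points that share lines and peak totals, and are given as a description.

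A list of 25 genes, called partner genes here, held genes that work with these factors and surface proteins such as PROM1. It was read in the same fit, with 6, 3 and 4 of the 25 called in the contrasts below, beside the 21.1%, 12.4% and 5.19% of all genes given above. For OCI-AML3 minus MV4-11, 1 gene was higher, PROM1 (1.27, the progenitor surface protein CD133), and 5 were lower, among them PRDM16 (-1.50), a relative of MECOM, and KIT (-1.31), the stem cell factor receptor. For OCI-AML3 minus MOLM13, 0 were higher and 3 were lower, which were MYB (-0.73), KIT (-0.76) and MEIS1 (-0.53), a HOX cofactor. For MV4-11 minus MOLM13, 3 were higher, among them PRDM16 (1.25) and RCOR1 (0.73), which encodes the LSD1 partner CoREST, and 1 was lower, PROM1 (-0.92). The medians of the list were -0.13, 0.02 and -0.04 in these contrasts, and those of all genes 0.12, 0.05 and -0.09.

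The treatment was compared within each line. Lost regions, called in both control libraries and neither VTP50469 library of a line, numbered 4 of 136 in OCI-AML3, 4 of 170 in MV4-11 and 1 of 131 in MOLM13, beside 2.57%, 2.75% and 1.3% of all regions of these lines. Gained regions, the reverse, numbered 2, 4 and 3, beside 1.32%, 1.92% and 3.22% of all regions. As shares of the regions in the 10 loci, the lost ones made 2.94%, 2.35% and 0.763% and the gained ones 1.47%, 2.35% and 2.29%, near the share over all regions. With 2 libraries against 2, no exact permutation test can pass for a single region, and these counts are a description.

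**Figure D4:**
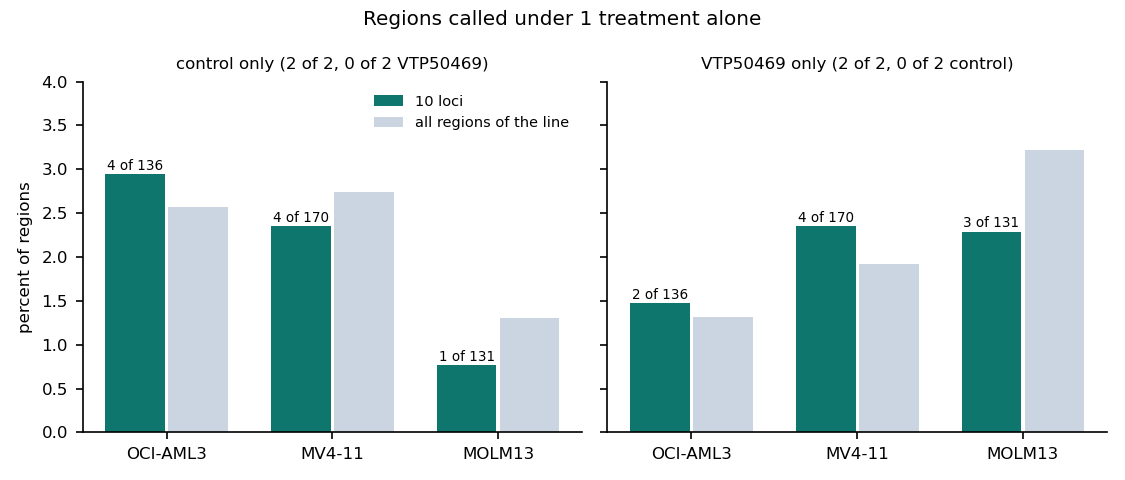
Percent of regions called under 1 treatment alone, in the 10 loci (green, with counts) and over all regions of the line (grey), for regions called in controls only (left panel) and in VTP50469 libraries only (right panel). In MV4-11 the 10 loci had 4 of each kind, and MOLM13 had 1 lost and 3 gained regions.

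The TAL1, GFI1 and MECOM starts were among them. At TAL1, OCI-AML3 lost a small peak within the start region (chr1:47231508-47231657), with no peak with VTP50469, against folds of 4.49 and 3.55 in control, while the main peak beside it was called in all 4 libraries. At the third GFI1 start, 3.11 kb into the gene (chr1:92483608-92484064), OCI-AML3 had no peak with VTP50469, against folds of 3.77 and 4.88 in control. MOLM13 had 2.92 and 3.41 with VTP50469, against no peak in control, the opposite direction, and MV4-11 had 3.23 and 3.82 with VTP50469, against 4.32 and 3.70 in control. The folds there were low, at 2.92 to 4.88, on 16 to 34 reads, and the difference between the lines was not tested.

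At the EVI1 start of MECOM, OCI-AML3 gained a region (chr3:169147334-169147718) with folds of 5.56 and 5.26 with VTP50469, against no peak in control. The same site had a peak in all 4 MV4-11 libraries and in 1 MOLM13 library, VTP50469 replicate 1. OCI-AML3 also lost the region 13.4 kb upstream of MECOM given above, a region 34.0 kb downstream of the LMO2 start (chr11:33857990-33858161; 5.27 and 4.62 in control), and gained 1 between the GFI1 starts (chr1:92485161-92485474; 4.28 and 3.36 with VTP50469).

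In MV4-11 the lost regions lay at 154.7 and 184.4 kb inside ERG (chr21:38507005-38507213 and chr21:38477268-38477410), 15.6 kb upstream of FLI1 (chr11:128669425-128669739) and 129 kb inside MECOM (chr3:169534925-169535065). Their folds were 3.53 to 5.16 in the controls. The gained regions lay at the edge of the 1 kb window of the FLI1 start (chr11:128686085-128686304; 4.38 and 4.21 with VTP50469), 59.0 kb inside MECOM (chr3:169604544-169604856; 5.87 and 4.91), and 2.96 and 31.9 kb from the CD34 start (chr1:207908095-207908240 and chr1:207879141-207879330; 4.12 to 5.01). MV4-11 control replicate 1 also had a peak within 1 kb of the FLI1 start (4.06), which did not overlap the gained region. In MOLM13 the lost region lay 232 kb inside MECOM (chr3:169431231-169431369; 4.18 and 6.74 in control). Besides the GFI1 start, MOLM13 gained a region 9.67 kb inside FLI1 (chr11:128694667-128694934; 3.51 and 4.18 with VTP50469) and 1 at 8.62 kb upstream of CD34 (chr1:207919695-207919786; 3.17 and 3.80). Within the line in which each of the 18 regions was lost or gained, its folds were at most 6.74. Some of these sites had higher folds in another line, such as the region upstream of MECOM.

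By peak number, 0 of the 10 loci passed for VTP50469 minus control in OCI-AML3, MV4-11, MOLM13 or over the 3 lines, beside 0.028%, 0.0%, 0.00559% and 0.00559% of all genes (limma). The smallest adjusted p among the 10 was 0.52, 0.995, 0.69 and 0.82, and 1, 0, 1 and 1 of them had an unadjusted p under 0.05. TAL1 in OCI-AML3 was the first of these: it had 2 and 1 peaks with VTP50469, against 5 and 3 in control, without overlap (log2 difference of -1.01, SE 0.41, unadjusted p = 0.022, adjusted p = 0.52). LMO2 in MOLM13 had 6 and 6 peaks with VTP50469, against 8 and 8 in control (-0.60, SE 0.24, adjusted p = 0.69), and TAL1 over the 3 lines gave -0.49 (SE 0.23, adjusted p = 0.82). None of the 25 partner genes passed for VTP50469 minus control in OCI-AML3, MV4-11, MOLM13 or over the 3 lines (limma), with 2, 2, 1 and 1 at an unadjusted p under 0.05, and limma with voom weights also called 0 of the 10 loci. The difference of the shift between lines did not pass for any of the 10 either, with a smallest adjusted p of 0.64.

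**Figure D5:**
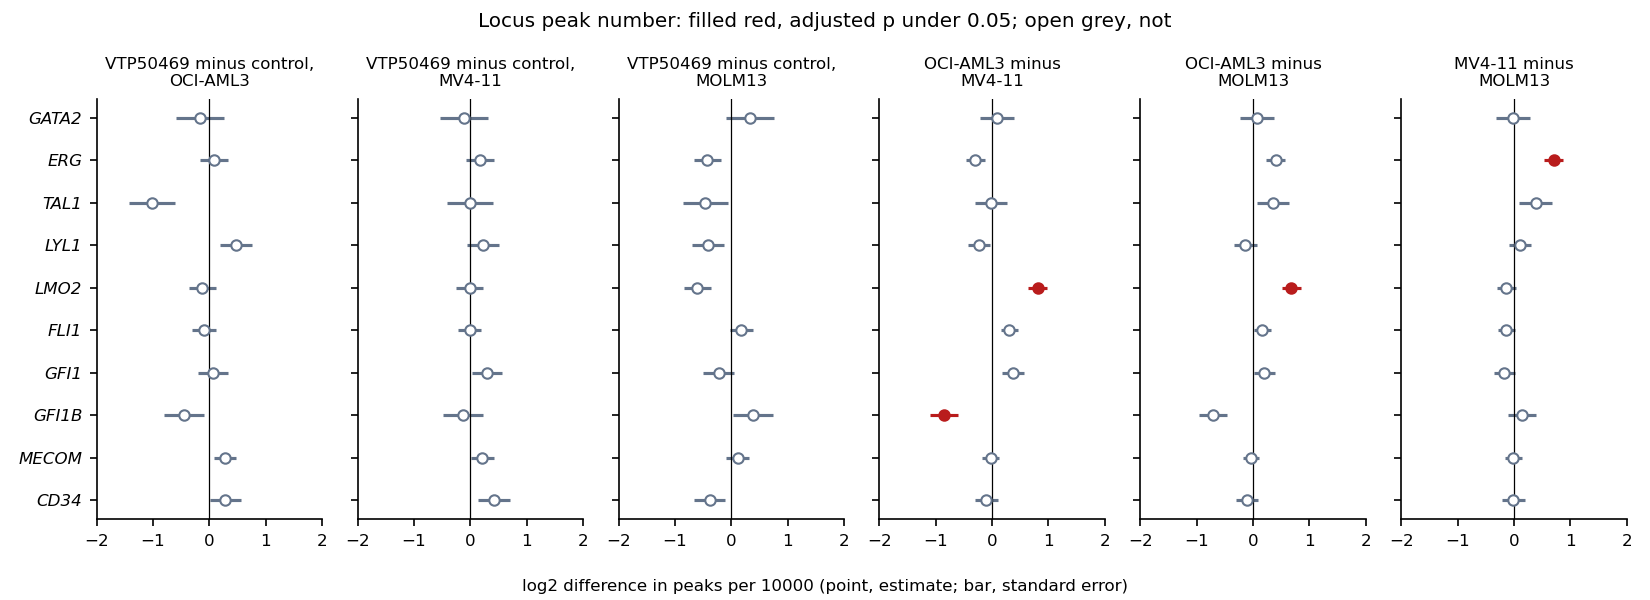
Log2 difference in peaks per 10000 for the 10 loci (horizontal axis; points, estimates; bars, standard errors) in 6 contrasts, with filled red points where the adjusted p passed. Red points appear for LMO2 (0.81 and 0.68), GFI1B (-0.86) and ERG (0.70) between lines and for none of the 10 loci under VTP50469.

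By strength, 0 of 29 regions in OCI-AML3, 0 of 61 in MV4-11 and 0 of 39 in MOLM13 passed, where a region had a peak in each of a line's 4 libraries, beside 0.0%, 0.0% and 0.0% of all regions, and 0 of the 23 shared regions passed over the 3 lines, beside 0.0%. At an unadjusted p under 0.05 the counts were 1, 4, 0 and 1, beside 5.80%, 6.58%, 5.61% and 6.41% of all regions. The GFI1B region 49.2 kb from its start, past the 3′ end (chr9:132994505-132994920), in MV4-11 had folds of 3.58 and 4.74 with VTP50469, against 8.25 and 7.72 in control (difference of -1.73, SE 0.45, adjusted p = 0.74). The ERG start region in MV4-11 had 7.20 and 5.40 with VTP50469, against 4.21 and 4.01 in control (1.29, SE 0.43, adjusted p = 0.74). In both the treatments did not overlap in these libraries, and neither passed the adjustment.

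The LYL1 region at 15.4 kb upstream had folds of 8.30 and 9.88 with VTP50469, against 6.27 and 5.43 in control, in OCI-AML3 (1.27, SE 0.48, adjusted p = 0.82). It had 14.4 and 11.6 with VTP50469, against 12.02 and 8.72 in control, in MV4-11, and 8.24 and 10.4 with VTP50469, against 7.07 and 8.71 in control, in MOLM13, where the treatments overlapped. Over the 3 lines the difference was 0.73 (SE 0.26, adjusted p = 0.73), which did not pass. NFIX, TRMT1 and NACC1 also overlap this locus, as given above.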

How the data were processed

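The 12 libraries were ATAC-Seq of 3 established AML cell lines. Per the labels and methods, the submitters' processing notes name MACS2 2.1.0, Bowtie 1.1.2, deepTools, bcl2fastq 2.17 and Trimmomatic 0.33, and peaks were deposited per library on hg38. The peak threshold, the Tn5 read shift and the handling of duplicates are not given in the sources used here. The deposited columns hold a display score, a fold (ratio) over the local background at the summit, −log10 p and −log10 q of the peak, and the summit position. These values were not normalised between libraries.

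Peaks on the autosomes and X were merged into regions at 1 bp of overlap. Genes and promoter windows came from RefSeq (GRCh38.p14), for which no exon annotation was used. Loci had a flank of 20 kb and start sites a window of 1 kb. Peak number was tested with limma 3.58.1 (R 4.3.3) on log2 of peaks plus 0.5 per 10000 peaks, for genes with 12 or more peaks summed. Strength was tested on normal scores of the fold's rank within its library. p-values were adjusted by Benjamini-Hochberg over all genes or regions, with a threshold of 0.05. The reads at a summit were recovered from the fold and p of each peak, which gave a whole number for at least 99.99% of peaks in each library (tolerance 0.001). The fits were tested on simulated data.

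Named were all 10 genes, the strongest region at and away from each gene's start sites, every lost, gained, single-line or called region, up to 2 further regions per strength contrast by p, up to 3 passing partner genes per contrast, and the 3 genes most like GATA2, ERG and TAL1. The members and lists were chosen with earlier results of these data known. Alternatives were a −log10 q of at least 5, the 60000 strongest peaks, flanks of 5 and 50 kb, merging at 50 bp, no filter, voom, an offset of 2, control libraries alone, −log10 p or reads as the measure, a replicate block, and each library left out.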

Additional observations from a re-analysis of the deposited data

Results flagged for a closer look

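At the third GFI1 start, the number of libraries with a peak with VTP50469 minus the number in control was -2 in OCI-AML3 and 2 in MOLM13, so that every library of one line ran opposite to every library of the other. The difference was not tested.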

How the results depend on the processing

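The 9 lost regions became 4 with the 60000 strongest peaks and 10 to 31 with each library left out, and the 9 gained regions became 4 with the 60000 strongest peaks, 5 at a −log10 q of at least 5 and 9 to 38 with each library left out, where the rule asks for 1 library fewer. The count of regions open in OCI-AML3 alone was 0 at that −log10 q and with a flank of 5 kb, and 1 without each library. That of MV4-11 was 0 with the 60000 strongest peaks, 6 with a flank of 50 kb and 3 to 6 without each library. The 4 line calls by peak number became 0 with the 60000 strongest peaks, 6 at a −log10 q of at least 5, none of them among the 4, 1 with control libraries alone and 2 to 5 without each library. The 3 line calls by strength became 1 at that −log10 q, which was another region, with the LYL1 and FLI1 regions not fitted, 6 with −log10 p as measure, 16 with recovered reads, 9 with 1 missing library admitted, 0 with control libraries alone and 1 to 7 without each library. For OCI-AML3 minus MV4-11, peak number turned to 0.55 for CD34 and 0.62 for GFI1B at that −log10 q and to 0.058 for GFI1B with the 60000 strongest peaks. With recovered reads, strength turned to -0.70 at the LYL1 start and -0.84 at the GFI1 region 26.8 kb downstream. The cause of these changes was not tested. Except with 1 missing library admitted, the shares of all genes and regions called under these alternatives were not computed. No VTP50469 call appeared by peak number or strength under any alternative run.

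Libraries of the same number did not deviate together (correlation over loci of -0.01 in OCI-AML3, -0.01 in MV4-11 and 0.03 in MOLM13), so the numbers were not used as pairs. With the replicate block the line calls stayed at 4 by peak number and 3 by strength, and those for VTP50469 at 0.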
